A study of Mus musculus with 9 samples.

Results

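The genes that encode the receptors for GABA, glycine, glutamate, and acetylcholine were examined in the retina of mice with oxygen-induced retinopathy (OIR). They were taken by name from the table of counts, as the protein-coding genes for GABA-A and GABA rho subunits, glycine receptor subunits, AMPA, kainate, delta, NMDA, and metabotropic glutamate receptors, and nicotinic and muscarinic acetylcholine receptors. Grm6 and Grik1, which serve as markers of bipolar cells, were left out. This gave 69 of 54532 genes, of which 60 passed the filter on low counts, among 17540 genes tested.

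Bulk RNA-Seq was of neurosensory retina taken at P17 from wild-type mice of strain C57BL/6, 9 in all and 3 to a group. OIR is made by raising pups for some days in high oxygen, where growing vessels are lost, and then in room air from P12, where the retina is short of oxygen and abnormal vessels form. Control mice (labelled Control+DMSO; mice 1, 6, and 7) were raised in room air. OIR mice (labelled Hypoxia+DMSO; mice 3, 5, and 6) received vehicle by a single intraocular injection at P12, and treated OIR mice (mice 2, 5, and 10) received 32-134D, a small-molecule inhibitor of HIF-1 and HIF-2, at 70 ng/µL, which the treatment label gives as 70 ng. The label gives DMSO for the control mice too, while no separate protocol is given for them. Each library is the retina of 1 labelled mouse, and the mice of different groups are not paired.

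Fast transmission in the retina runs through those of these receptors that are ion channels. Photoreceptors and bipolar cells release glutamate, which is read by AMPA, kainate, and NMDA receptors, all of them ion channels, and by the metabotropic receptors, which act through G proteins. Amacrine cells release GABA or glycine, which open chloride channels built from GABA-A, GABA rho, or glycine receptor subunits, and starburst amacrine cells release acetylcholine onto nicotinic and muscarinic receptors. Amacrine and ganglion cells of the inner retina carry most of these subunits, whereas the rho subunits are best known from the axon terminals of bipolar cells.

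Total counts ranged from 16028731 to 27213184 per mouse. Treated OIR mouse 2 stood apart. Crystallin genes, which are the main products of the lens, held 15.8% of its counts and at most 0.186% of the counts of any other mouse. Rod, cone, bipolar, Müller glia, amacrine, and ganglion cell markers were detected in the control mice, as the label of retina requires. In the text below CPM are counts per 1000000 counts of a library after TMM scaling, and RPKM are CPM per kilobase of gene length, the only scale on which different genes are compared. Fold changes are log2 values from the fit of all 9 mice and are given with ± their standard error (SE). A gene was called at an adjusted p (Benjamini-Hochberg over all genes tested) below 0.05 in the quasi-likelihood test of edgeR.

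Most receptor genes were lower in OIR than in control mice, but edgeR called no single one in the fit of all 9 mice. Summed over the 69 genes, the receptors held 1773, 2192, and 2284 CPM in control mice 1, 6, and 7, as against 1440, 1263, and 1130 CPM in OIR mice 3, 5, and 6. Treated OIR mice 2, 5, and 10 held 996, 1588, and 1859 CPM. All 3 OIR mice lay below all 3 control mice, and the treated mice spread from below the lowest OIR mouse to within the control range. The median log2 fold change of the 60 tested receptors in OIR against control was -0.88, beside 0.03 for all genes tested, and 51 values were negative and 9 positive. In bulk retina, fewer cells of a type and less RNA per cell cannot be told apart.

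**Figure D1:**
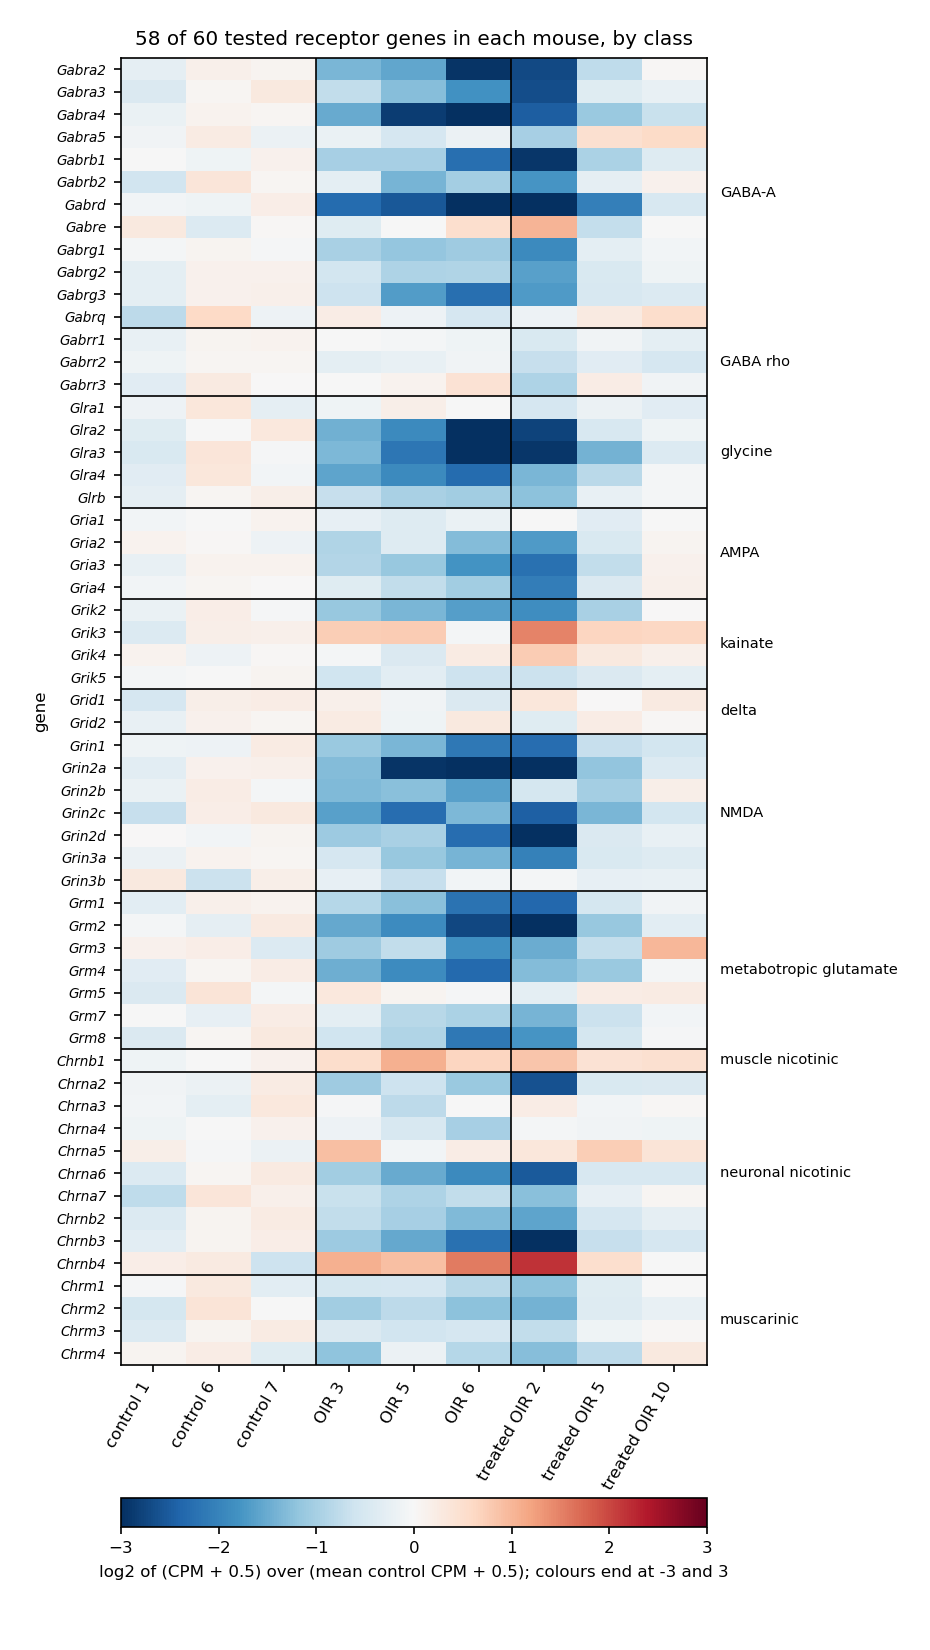
Heat map of 58 of the 60 tested receptor genes (rows, by class) in the 9 mice (columns), coloured by the log2 of CPM plus 0.5 over the control mean plus 0.5, with colours ending at -3 and 3. Most rows are blue in the 3 OIR mice and in treated OIR mouse 2, are paler in treated OIR mice 5 and 10, and few rows, such as Chrnb4, Chrnb1, and Grik3, are red in most OIR and treated OIR mice.

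By edgeR on all 9 mice, no receptor gene had an adjusted p below 0.05 in OIR against control, where 0.433% of all genes tested were called higher and 0.507% lower. At an unadjusted p below 0.05, 28 receptors were lower and 2 were higher, while 12.7% of all genes were lower and 11.1% were higher by that rule. For 38 receptors all 3 OIR mice lay below all 3 control mice and for 2 all lay above, beside 17.2% and 15.9% of all genes. The number called differed with the tool and with the mice included. On the same 9 mice DESeq2 called 19 of 60 lower and 1 higher, beside 6.93% and 4.44% of all genes, and limma-voom called 25 lower and 1 higher, beside 7.91% and 5.23%. Without treated OIR mouse 2, which is in neither group compared, edgeR called 31 of 62 receptors lower and 2 higher at an adjusted p below 0.05, beside 8.59% and 3.95% of all genes. DESeq2 on the 6 control and OIR mice alone called 33 of 60 lower and 2 higher, beside 10% and 5.58%. Without treated OIR mouse 10, edgeR called 3 of 61 lower and 0 higher, beside 0.736% and 0.349% of all genes, and without any one of the other 7 mice it called 0 receptors and 0 genes of any kind. At an unadjusted p below 0.05, the number lower was 18 without OIR mouse 5, beside 9.92% of all genes, and also 18 without OIR mouse 6, beside 8.2%.

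The classes differed in how far they moved as a description. In OIR against control the class medians of the log2 fold change were -2.10 for 5 glycine receptor genes, -1.45 for 7 NMDA genes, -1.40 for 7 metabotropic glutamate genes, and -1.005 for 14 GABA-A genes. Medians were -0.86 for 9 neuronal nicotinic genes, -0.80 for 4 muscarinic genes, -0.76 for 4 AMPA genes, and -0.28 for 4 kainate genes. Those of the 3 rho genes and the 2 delta genes were -0.07 and 0.02. No test was made between classes. Chrnb1 was the only tested gene of the muscle nicotinic class, at 0.81.

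**Figure D2:**
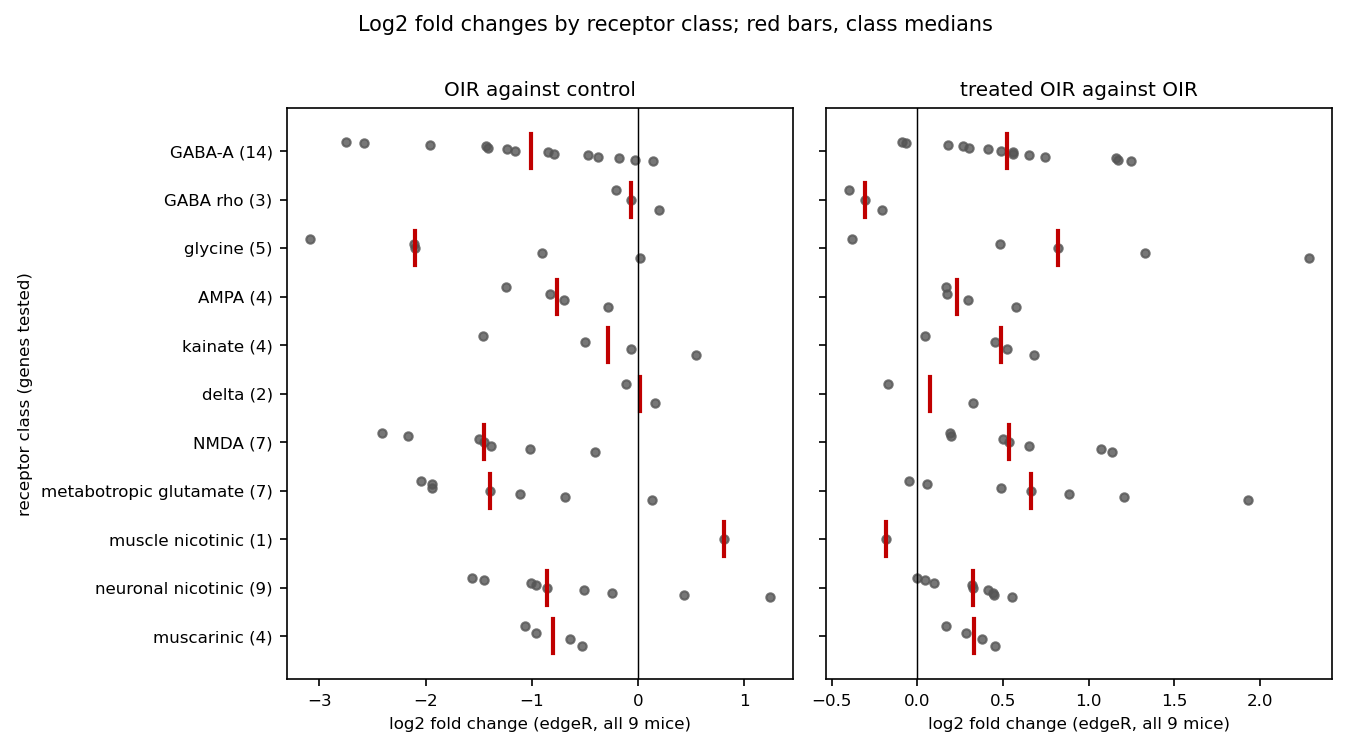
Log2 fold changes from edgeR over all 9 mice (x axis) of each tested receptor gene (points) by class (y axis, with the number of genes tested), for OIR against control on the left and treated OIR against OIR on the right, where red bars mark class medians. The glycine, NMDA, metabotropic glutamate, and GABA-A medians lie below -1 on the left, and the rho median is below 0 on both sides, at -0.07 and -0.30.

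Of the 16 GABA-A genes, Gabra6 and Gabrp had at most 1 count in any mouse and were not tested. Of the 14 tested, 13 had a negative log2 fold change in OIR against control. For 8 of the 14 OIR mice all lay below control mice and for none above, beside 17.2% and 15.9% of all genes. Gabrd (ENSMUSG00000029054, chromosome 4, 155384980 to 155398112 in GRCm38, the build of all positions here) encodes the delta subunit, which forms receptors outside the synapse that carry tonic inhibition. It had 23.96, 22.99, and 29.1 CPM in control mice 1, 6, and 7, 4.71, 3.96, and 2.65 CPM in OIR mice 3, 5, and 6, and 1.396, 5.703, and 17.99 CPM in treated OIR mice 2, 5, and 10. The OIR values lay far below the control values without overlap, and of the treated mice only mouse 10 came near the control range. The log2 fold change was -2.75 ± 0.71 (SE, adjusted p = 0.0794, edgeR) in OIR against control and -1.59 ± 0.67 (adjusted p = 0.253, edgeR) in treated OIR against control.

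Gabra4 (ENSMUSG00000029211, chromosome 5, 71569749 to 71658308) encodes the alpha4 subunit, a usual partner of delta. It had 9.36, 11.7, and 11.3 CPM in control, 3.48, 1.07, and 0.8998 CPM in OIR, and 1.52, 4.72, and 6.58 CPM in treated OIR mice. All OIR and all treated mice lay below the control mice. Its log2 fold change was -2.58 ± 0.61 (SE, adjusted p = 0.0681, edgeR) in OIR against control, and 1.25 ± 0.60 (adjusted p = 0.9998, edgeR) in treated OIR against OIR. Gabra2, which encodes the alpha2 subunit, had 10.8, 14.6, and 13.7 CPM in control, 4.71, 4.102, and 1.26 CPM in OIR, and 1.59, 7.48, and 13.5 CPM in treated OIR mice. Its OIR values did not overlap the control values, at a log2 fold change of -1.96 ± 0.68 (SE, adjusted p = 0.135, edgeR).

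Of the summed RPKM of the class, Gabrd made up 11.3% ± 1.9 (SD, n = 3) in room air and 2.7% ± 0.6 with OIR. No GABA-A gene had treated OIR mice all above or all below the OIR mice, beside 3.74% and 5.39% of all genes.

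All 3 rho genes were expressed, and Gabrr1 had the highest mean RPKM of the 69 receptors, at 45.3. Gabrr1 had 95.8, 119, and 120.5 CPM in control, 111, 107, and 102 CPM in OIR, and 81.6, 105, and 90.8 CPM in treated OIR mice. The groups overlapped, with a log2 fold change of -0.07 ± 0.12 in OIR against control. Gabrr2 (ENSMUSG00000023267, chromosome 4, 33062999 to 33095865) had 58.5, 67.5, and 67.5 CPM in control, 52.7, 54.9, and 59.97 CPM in OIR, and 39.5, 51.1, and 45.02 CPM in treated OIR mice. Here the treated mice lay below both other groups, while OIR and control mice overlapped. The log2 fold change was -0.51 ± 0.12 (SE, adjusted p = 0.114, edgeR) in treated OIR against control and -0.30 ± 0.12 (adjusted p = 0.9998, edgeR) in treated OIR against OIR. Gabrr3 ranged from 22.5 to 34.5 CPM in control, 28.4 to 38.5 CPM in OIR, and 14.7 to 33.1 CPM in treated OIR mice, and shares 6.53% of its exon bases with 1700022E09Rik on the opposite strand. Whether counting used strand is not given in the sources used here, so that reads of such pairs cannot be told apart.

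Of the 5 glycine receptor genes, 4 had OIR mice all below control mice, beside 17.2% of all genes. Glrb, the beta subunit that anchors the receptor at synapses, had the most RNA per length in the class (12.1 RPKM). It had 61.3, 77.98, and 84.01 CPM in control, 45.7, 37.6, and 36.04 CPM in OIR, and 31.5, 63.3, and 71.7 CPM in treated OIR mice, a log2 fold change of -0.90 ± 0.27 (SE, adjusted p = 0.103, edgeR) in OIR against control. Glra2 (ENSMUSG00000018589, chromosome X, 165129017 to 165327393), the alpha2 subunit found on amacrine cells and common in the immature nervous system, had 19.5, 25.02, and 31.7 CPM in control, 9.09, 6.39, and 2.38 CPM in OIR, and 3.299, 18.2, and 23.2 CPM in treated OIR mice. Its OIR values lay apart from the control values, and those of treated mice 5 and 10 lay above every OIR mouse. The log2 fold change was -2.10 ± 0.66 (SE, adjusted p = 0.113, edgeR) in OIR against control.

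Glra1, the alpha1 subunit of adult synapses and of ganglion and bipolar cells, was the exception in this class. It had 4.16, 6.04, and 3.804 CPM in control, 4.22, 5.36, and 4.59 CPM in OIR, and 3.17, 4.11, and 3.597 CPM in treated OIR mice. OIR and control mice overlapped at a log2 fold change of 0.02 ± 0.25, whose sign turned under 7 of the alternatives, and the gene shares 5.84% of its exon bases with Gm12236. Glra3 and Glra4 had log2 fold changes of -2.11 ± 0.64 and -3.09 ± 0.65, though Glra4 was low, with 1.82 to 3.17 CPM in control mice.

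The 4 AMPA receptor genes, whose channels carry most fast excitation, all had OIR mice below control mice, beside 17.2% of all genes. Gria4 (GluA4), with the most RNA per length of these (11.1 RPKM), had 85.6, 95.1, and 91.4 CPM in control, 70.3, 54.03, and 43.9 CPM in OIR, and 21.1, 67.3, and 100.2 CPM in treated OIR mice. Its log2 fold change in OIR against control was -0.69 ± 0.44 (SE, adjusted p = 0.364, edgeR). The wide standard error goes with the spread of the treated mice from 21.1 to 100.2 CPM, since the fit shares 1 spread among groups. The other 3 ranged from -0.29 for Gria1 to -1.24 for Gria3.

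Among the 4 kainate receptor genes the directions differed. Grik5 (GluK5; ENSMUSG00000003378, chromosome 7, 25009849 to 25072346), an auxiliary subunit that forms channels only with another kainate subunit, had 159, 164, and 174 CPM in control, 109, 133, and 108 CPM in OIR, and 105, 122, and 135 CPM in treated OIR mice. Both the OIR and the treated mice lay below all control mice, with log2 fold changes of -0.50 ± 0.12 (SE, adjusted p = 0.0702, edgeR) and -0.46 ± 0.12 (adjusted p = 0.141, edgeR). Grik3 (GluK3) had 12.3, 18.8, and 18.5 CPM in control, 27.7, 28.5, and 15.9 CPM in OIR, and 47.01, 25.9, and 25.8 CPM in treated OIR mice. The treated mice all lay above the control mice, at a log2 fold change of 0.997 ± 0.31 (SE, adjusted p = 0.175, edgeR), while the OIR mice overlapped them. Of the kainate class's summed RPKM, Grik3 made up 5.1% ± 1.0 (SD, n = 3) in room air, 10.1% ± 2.4 with OIR, and 12.97% ± 5.4 with OIR and treatment. Grid1, the more abundant per length of the 2 delta receptor genes at 4.69 RPKM, overlapped between all groups, from 18.9 to 31.9 CPM in control, 19.9 to 30.4 CPM in OIR, and 27.2 to 34.4 CPM in treated OIR mice.

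All 7 NMDA receptor genes had negative log2 fold changes in OIR against control, from -0.40 to -2.41. For 6 of them OIR mice all lay below control mice, beside 17.2% of all genes. The exception, Grin3b (-0.40 ± 0.38), was low, with 1.19 to 2.72 CPM in control mice. It shares 32.1% of its exon bases with Tmem259 on the opposite strand. Grin1 (ENSMUSG00000026959, chromosome 2, 25291181 to 25319187), the obligatory GluN1 subunit of every NMDA receptor, had 104, 101, and 134 CPM in control, 51.7, 43.3, and 25.01 CPM in OIR, and 22.6, 69.4, and 77.1 CPM in treated OIR mice. All OIR and treated mice lay below the control mice, with log2 fold changes of -1.498 ± 0.42 (SE, adjusted p = 0.0925, edgeR) and -1.0004 ± 0.42 (adjusted p = 0.247, edgeR). Grin1 shares 13.5% of its exon bases with the antisense gene Grin1os.

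Grin2b (GluN2B; ENSMUSG00000030209, chromosome 6, 135713233 to 136173511) and Grin2a (GluN2A) are subunits that set the kinetics of the channel, and GluN2A increases as many neurons mature. Grin2b had 20.5, 27.8, and 22.8 CPM in control, 9.09, 9.603, and 7.33 CPM in OIR, and 16.2, 11.5, and 26.9 CPM in treated OIR mice. The OIR mice lay below both other groups without overlap, with log2 fold changes of -1.45 ± 0.29 (SE, adjusted p = 0.0562, edgeR) in OIR against control and 1.07 ± 0.29 (adjusted p = 0.984, edgeR) in treated OIR against OIR. Grin2a had 11.98, 16.4, and 16.8 CPM in control, 5.83, 1.54, and 1.21 CPM in OIR, and 1.01, 6.38, and 11.3 CPM in treated OIR mice, and its log2 fold change in OIR against control was -2.41 ± 0.80 (SE, adjusted p = 0.124, edgeR).

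Of the 7 metabotropic glutamate receptor genes, 6 had OIR mice all below control mice, beside 17.2% of all genes. Grm4 (mGluR4; ENSMUSG00000063239, chromosome 17, 27422387 to 27521403), a receptor that dampens transmitter release, had 19.2, 25.6, and 28.3 CPM in control, 8.45, 6.1997, and 4.41 CPM in OIR, and 9.64, 10.9, and 23.3 CPM in treated OIR mice. The OIR mice lay below both other groups. Its log2 fold change was -1.94 ± 0.37 (SE, adjusted p = 0.0530, edgeR) in OIR against control, the lowest adjusted p of the 60 receptors, and 1.21 ± 0.37 (adjusted p = 0.984, edgeR) in treated OIR against OIR. Grm2 (mGluR2), known in the retina from starburst amacrine cells, had the most RNA per length in the class (3.27 RPKM). It had 27.2, 23.5, and 34.5 CPM in control, 9.52, 7.37, and 3.82 CPM in OIR, and 2.73, 12.6, and 22.7 CPM in treated OIR mice, a log2 fold change of -2.04 ± 0.62 (SE, adjusted p = 0.106, edgeR) in OIR against control. Grm2 shares 9.60% of its exon bases with Gm28111 on the opposite strand. Grm5 was the exception at 0.13 ± 0.24, and its part in the summed RPKM of the class was 8.3% ± 2.3 (SD, n = 3) for control and 22.6% ± 5.0 in OIR mice.

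**Figure D3:**
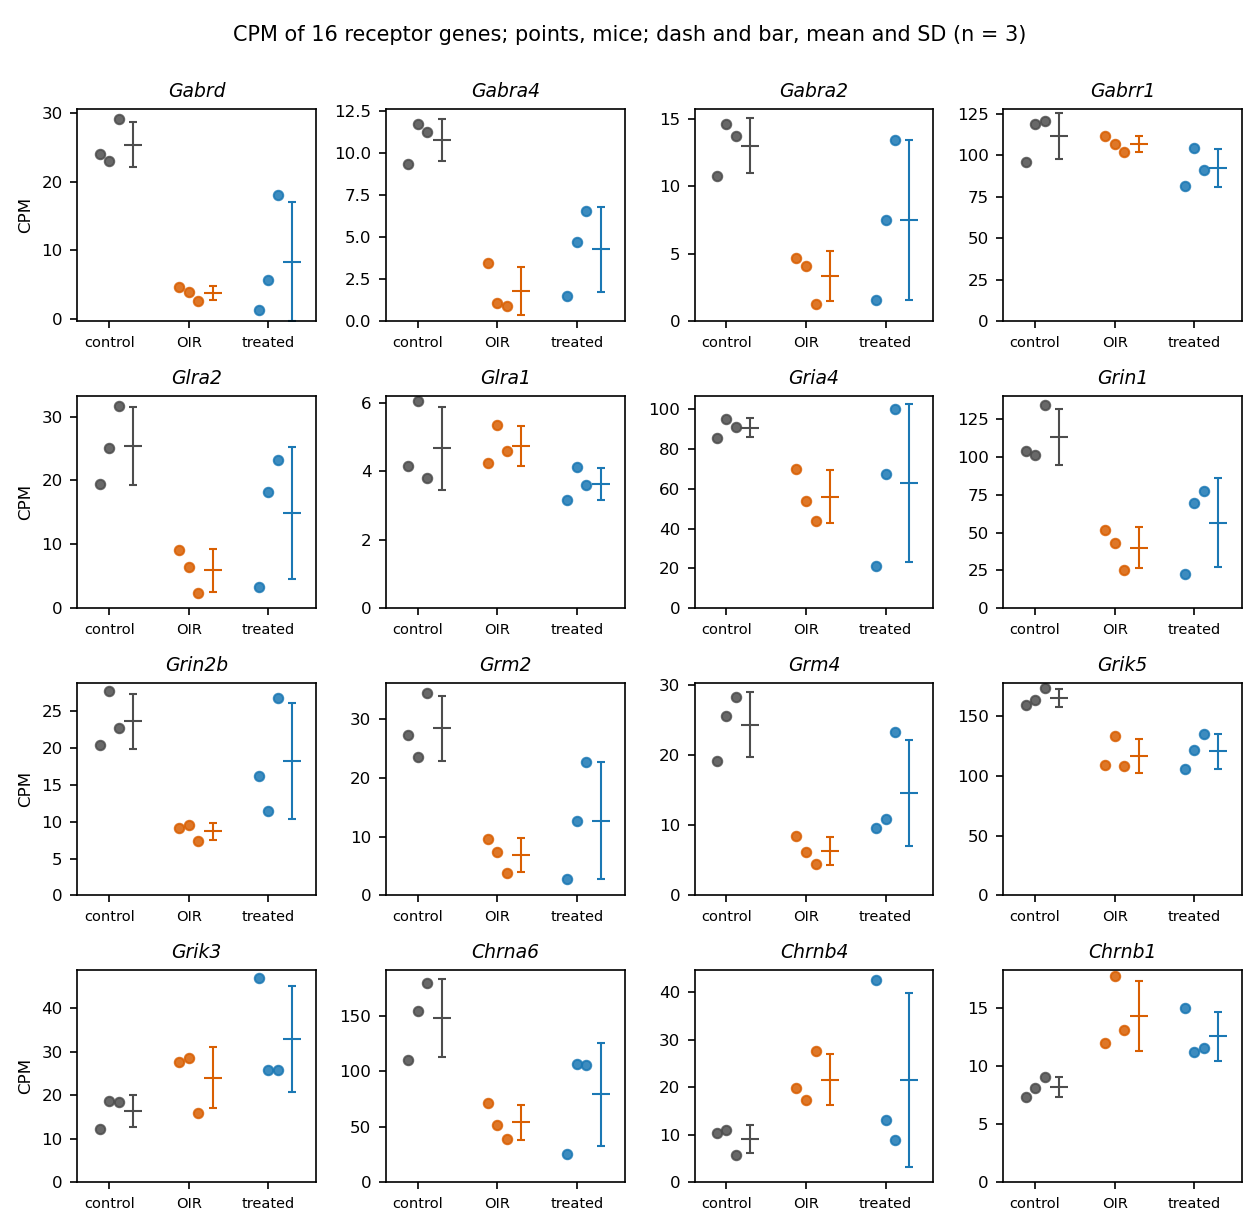
CPM (y axis, linear) of 16 receptor genes in control, OIR, and treated OIR mice, where each point is a mouse and the dash and bar beside it are the mean and SD (n = 3). In Gabrd, Gabra4, Gabra2, Glra2, Grin1, Grm2, and Chrna6 the OIR points lie below the control points and treated OIR mouse 2 lies near or below the OIR points, while Gabrr1 and Glra1 overlap between OIR and control mice.

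The neuronal nicotinic genes split into 7 with negative and 2 with positive log2 fold changes in OIR against control. Chrna6 (ENSMUSG00000031491, chromosome 8, 27403212 to 27413944), the alpha6 subunit that retinal ganglion cells carry to their targets in the brain, had the second highest mean RPKM of all receptors, at 32.3. It had 110.4, 154, and 179 CPM in control, 71.2, 51.6, and 39.3 CPM in OIR, and 25.4, 106, and 106 CPM in treated OIR mice. All OIR and treated mice lay below the control mice, though mice 5 and 10 were close to the lowest of these. The log2 fold change in OIR against control was -1.45 ± 0.47 (SE, adjusted p = 0.120, edgeR). Its part in the summed RPKM of the class was 52.8% ± 2.6 (SD, n = 3) for control and 38.6% ± 3.9 in OIR mice.

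Chrnb4 (ENSMUSG00000035200, chromosome 9, 55028154 to 55048779), the beta4 subunit, went the other way. It had 10.5, 11.05, and 5.74 CPM in control, 19.7, 17.3, and 27.7 CPM in OIR, and 42.6, 13.1, and 8.99 CPM in treated OIR mice. All OIR mice lay above all control mice, at a log2 fold change of 1.24 ± 0.53 (SE, adjusted p = 0.198, edgeR), treated mouse 2 was the highest of the 9, and mouse 10 lay within the control range. Chrna5, an accessory subunit encoded in the same gene cluster as Chrnb4, had 5.94, 5.05, and 4.58 CPM in control, 10.1, 4.89, and 6.12 CPM in OIR, and 6.66, 8.95, and 6.89 CPM in treated OIR mice, where only the treated mice lay above control without overlap. Chrna4, the alpha4 subunit of the common high-affinity receptor, had 35.9, 38.9, and 43.1 CPM in control, 35.3, 28.2, and 19.4 CPM in OIR, and 37.999, 36.8, and 35.6 CPM in treated OIR mice. The OIR values lay below those of both other groups, narrowly so, with log2 fold changes of -0.51 ± 0.19 (SE, adjusted p = 0.156, edgeR) against control and, for treated OIR against OIR, 0.41 ± 0.19 (adjusted p = 0.9998, edgeR).

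Of the 5 muscle nicotinic genes only Chrnb1 (ENSMUSG00000041189, chromosome 11, 69784036 to 69795943), the beta subunit of the receptor at the neuromuscular junction, passed the filter. It had 7.403, 8.12, and 9.09 CPM in control, 12.03, 17.8, and 13.2 CPM in OIR, and 15.03, 11.2, and 11.6 CPM in treated OIR mice. Both groups lay above control, with log2 fold changes of 0.81 ± 0.20 (SE, adjusted p = 0.0746, edgeR) and 0.62 ± 0.20 (adjusted p = 0.186, edgeR). Chrna9 and Chrna10 of the neuronal class and Chrm5 of the muscarinic class did not pass it either, with at most 15 counts in any mouse. Chrna1 had 0.19 to 1.03 CPM in the 9 mice, Chrnd had 0 counts in each of them, and Chrne at most 3 counts. Chrng, the gamma subunit of fetal muscle, had 303 counts in treated OIR mouse 2 and 0 in the other 8 mice. The 10 skeletal muscle markers summed to 8.4 to 12.6 CPM in the 9 mice, with 10.3 CPM in mouse 2, while the 10 lens markers summed to 82245 CPM in that mouse and to 8.0 to 764 CPM in the others. The part of lens tissue in the Chrng counts was not tested.

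The 4 tested muscarinic genes all had negative log2 fold changes in OIR against control, from -0.53 to -1.07. For 3 of them OIR mice all lay below control mice, beside 17.2% of all genes. Chrm3 (M3), a receptor that acts through calcium release, had 9.32, 13.3, and 14.96 CPM in control, 9.09, 8.297, and 8.64 CPM in OIR, and 7.36, 11.4, and 12.8 CPM in treated OIR mice. OIR lay just below control, at a log2 fold change of -0.53 ± 0.25 (SE, adjusted p = 0.232, edgeR).

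In 2 subunit pairs the relative RNA level per length was compared within each mouse, which does not depend on how libraries are scaled. The log2 ratio of Glra1 to Glra2 was -1.84, -1.66, and -2.65 in control mice 1, 6, and 7, -0.71, 0.13, and 1.32 in mice 3, 5, and 6 of the OIR group, whereas it was 0.33, -1.74, and -2.29 for treated mice 2, 5, and 10. All OIR mice were above all control mice, by a mean of 2.296 (two-sided exact permutation p = 0.1, adjusted p = 0.3). The ratio of Grin2a to Grin2b was -0.30, -0.28, and 0.04 in the control mice, -0.17, -2.14, and -2.08 in those with OIR, and -3.45, -0.37, and -0.78 in those also given 32-134D. OIR and control overlapped here (difference -1.28, exact permutation p = 0.3, adjusted p = 0.514), while the treated mice all lay below control (difference -1.35, exact permutation p = 0.1, adjusted p = 0.3). Without treated mouse 2 the latter difference was -0.39, and over all mice left out in turn it ran from -1.93 to -0.39 (exact permutation p = 0.1 to 0.5). With 3 mice against 3 the exact test cannot give a p below 0.1.

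Several receptor genes are neighbours in the genome, and those within 1000000 bases of each other formed 10 groups. On chromosome 5, Gabrg1, Gabra2, Gabra4, and Gabrb1 lie between 70751047 and 72149037 (GRCm38). All 4 had OIR mice below control mice, beside 17.2% of all genes. Their log2 fold changes were -1.16 ± 0.43, -1.96 ± 0.68, -2.58 ± 0.61, and -1.41 ± 0.63. On chromosome 8, Chrnb3 and Chrna6 stood at -1.56 ± 0.66 and -1.45 ± 0.47. Other groups were not uniform. On chromosome 9, Chrna3, which lies between Chrna5 and Chrnb4, was at -0.25 ± 0.25. On chromosome 7, Gabrg3 was at -1.43 ± 0.47 and Gabra5 at -0.48 ± 0.64. Gabra5 was low, with 3 to 30 counts per mouse, and its SE was larger than its fold change, so these 2 cannot be told apart.

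**Figure D4:**
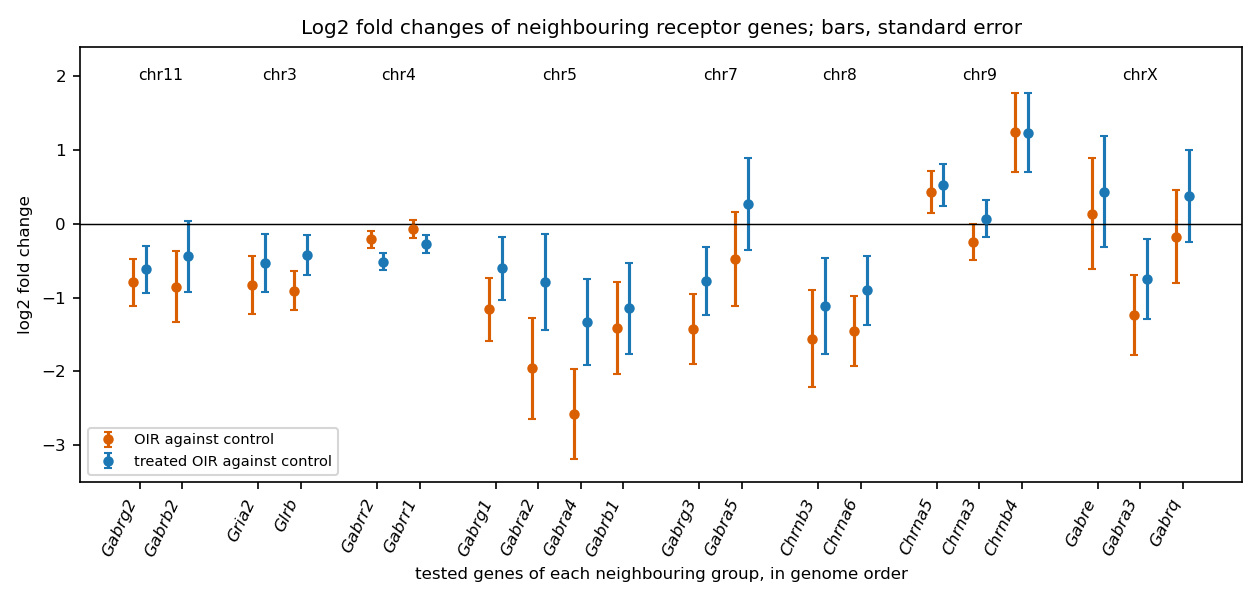
Log2 fold changes from edgeR with standard errors (y axis) of the tested receptor genes plotted that lie within 1000000 bases of each other, in genome order and by chromosome (x axis), for OIR against control (orange) and treated OIR against control (blue), which share the control mice. The 4 genes on chromosome 5 and the 2 on chromosome 8 are below 0 in both comparisons, while on chromosome 9 Chrnb4 is at 1.24 in both. For Chrnb4 the treated mice overlapped the control mice, at 42.6 CPM in mouse 2 but 13.1 and 8.99 CPM in mice 5 and 10.

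Gabra4 and Gabrb1 face each other on opposite strands with overlapping starts and share 46 exon bases, so they are shown here as neighbours that were both lower in OIR mice, and Chrnb4 is shown as a receptor that was higher. The RefSeq promoter windows (GRCm38.p6), 250 bases before to 50 after the start, are given 5′ to 3′ on the strand of the gene, with the letters ACGTG or GCGTG, the core of the HIF binding motif, in capitals on either strand (as CACGT or CACGC on the other; ACGTG and CACGT can overlap). They are Gabra4 at chr5:71658259-71658558 (minus strand), Gabrb1 at chr5:71657671-71657970 (plus strand), and Chrnb4 at chr9:55048495-55048794 (minus strand). Gabrb1 has another window at chr5:71699682-71699981, which also holds the letters and is not printed here.
Gabra4: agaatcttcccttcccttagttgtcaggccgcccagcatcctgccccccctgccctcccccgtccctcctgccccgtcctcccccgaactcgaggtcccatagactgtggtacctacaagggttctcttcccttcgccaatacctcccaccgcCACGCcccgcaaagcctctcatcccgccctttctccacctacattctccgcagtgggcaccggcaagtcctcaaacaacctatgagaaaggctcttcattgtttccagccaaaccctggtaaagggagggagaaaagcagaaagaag
Gabrb1: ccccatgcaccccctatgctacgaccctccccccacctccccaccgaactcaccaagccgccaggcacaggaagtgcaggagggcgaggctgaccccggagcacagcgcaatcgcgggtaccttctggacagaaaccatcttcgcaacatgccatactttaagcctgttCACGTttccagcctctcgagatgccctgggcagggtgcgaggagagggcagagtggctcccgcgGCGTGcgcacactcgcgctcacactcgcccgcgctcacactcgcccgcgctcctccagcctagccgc
Chrnb4: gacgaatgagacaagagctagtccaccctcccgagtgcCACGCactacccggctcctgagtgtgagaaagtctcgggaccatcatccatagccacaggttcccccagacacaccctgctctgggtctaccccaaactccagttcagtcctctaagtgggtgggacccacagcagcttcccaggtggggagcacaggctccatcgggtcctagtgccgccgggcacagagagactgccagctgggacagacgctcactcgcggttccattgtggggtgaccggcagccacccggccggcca

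All 3 windows printed held the letters, but so did many others. Of the 69 receptors, 49 had a window in the RefSeq table, and 24 of these (49.0%) held the motif in any of their windows, beside 46.7% of all gene symbols and 43.8% of all windows. The motif was in 13 of 25 receptors whose OIR mice lay below control mice and in 9 of 16 other tested ones. A match describes letters in the window and is not evidence of binding.

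The 3 treated OIR mice differed widely from each other. Mouse 2 was the lowest of the 9 mice in 37 of 60 receptors, beside 18.2% of all genes tested, and the highest in 5, beside 18.2% again. The median of the 60 receptors relative to the control mean, in log2 CPM, stood at -0.62, -0.86, and -1.09 for OIR mice 3, 5, and 6 against -1.59, -0.44, and -0.05 in treated OIR mice 2, 5, and 10.

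By edgeR no receptor was called in treated OIR against control, where 0.0114% of all genes were called higher and 0.0114% lower. At an unadjusted p below 0.05, 6 were lower and 3 higher, beside 8.60% and 10% of all genes, and treated mice lay below all control mice for 15 and above for 4, beside 12.2% and 12.8%. Leaving out mouse 2 gave 15 below and 5 above, with 17.3% and 18.2% of all genes, a rule met more easily with 2 mice. The median log2 fold change was -0.53, which became -0.27 without mouse 2 and -0.94 without mouse 10, and the number lower at an unadjusted p below 0.05 was 22 without mouse 10 (9.88% of all genes), 3 without control mouse 6 (6.87%) or OIR mouse 5 (7.59%), and 2 without control mouse 7 (5.45%). DESeq2 on all 9 mice called 2 lower and 1 higher, beside 2.45% and 2.25% of all genes, and limma-voom 3 lower and 0 higher, beside 2.66% and 2.62%, while DESeq2 and edgeR on the 2 groups called none.

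In treated OIR against OIR again no receptor was called, with 0.00% of all genes called higher and 0.00% lower. At an unadjusted p below 0.05, 3 receptors (Glra4, Grin2b, and Grm4) were higher and 1 (Gabrr2) was lower, beside 2.39% and 2.30% of all genes. Treated mice lay above all OIR mice for 4 receptors and below for 2, beside 3.74% and 5.39%. The sign was positive for 50 of 60, with a median of 0.43. Without mouse 2, 31 of 62 were higher and 1 lower at an unadjusted p below 0.05, beside 8.35% and 4.69% of all genes, with a median of 0.78, and the lowest adjusted p was 0.190. In the same setting treated mice lay above OIR mice for 35 and below for 4, beside 16.1% and 17.1%. The median was 0.12 without treated mouse 10 and 0.25 without OIR mouse 6. The number higher at an unadjusted p below 0.05 was 8 of 62 without OIR mouse 3, beside 2.7% of all genes. The number lower by that rule was 3 of 62 without treated mouse 5, beside 1.62%. It was 0 without OIR mouse 6 or treated mouse 10, beside 1.07% and 1.55%. DESeq2 and limma-voom called 0 as well.

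By class, the median log2 fold change in treated OIR against OIR was 0.82 for glycine, 0.66 for metabotropic glutamate, 0.54 for NMDA, and 0.52 for GABA-A receptor genes. Without mouse 2 these medians were 1.29, 1.12, 1.08, and 0.90, while that of the rho genes was -0.30 with and -0.10 without that mouse. The summed glycine receptor level was 130.3 ± 23.0 CPM (SD, n = 3) in control, 56.1 ± 11.5 CPM in OIR, and 84.9 ± 39.5 CPM in treated OIR mice. The summed NMDA receptor level was 192 ± 22.7, 68.5 ± 21.6, and 103 ± 51.6 CPM, and the summed rho level 205 ± 24.2, 195 ± 4.60, and 162 ± 26.5 CPM. The SD of the treated group was the largest of the 3 in each of these classes, and mouse 2 was its lowest mouse for Glra2, Glrb, Grin1, Gabrr1, and Gabrr2.

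Of 55 genes listed as receptor partners (Lrit3 of these is also a bipolar marker here), which assemble, anchor, traffic, or modulate these receptors, 54 were tested. By edgeR none was called in any of the 3 comparisons, and at an unadjusted p below 0.05, 29 were lower and 3 higher in OIR against control, beside 12.7% and 11.1% of all genes, with a median of -0.62. Cacng7, an auxiliary subunit of AMPA receptors, had 213, 203, and 245 CPM in control, 160.1, 149, and 162 CPM in OIR, and 152, 167, and 163 CPM in treated OIR mice, below control in every mouse of both groups (-0.49 ± 0.10 on the log2 scale in OIR, edgeR adjusted p = 0.0576). Trak2, which links GABA-A receptors and mitochondria to motor proteins, was higher, with 208, 238, and 225 CPM in control, 324, 292, and 348 CPM in OIR, and 302, 280.5, and 271 CPM in treated OIR mice (0.52 ± 0.11 on the log2 scale in OIR, edgeR adjusted p = 0.0576). Cbln4, a secreted organizer of synapses, had 8.59, 10.01, and 11.5 CPM in control, 2.51, 1.398, and 0.8098 CPM in OIR, and 1.33, 3.802, and 9.04 CPM in treated OIR mice (-2.68 ± 0.64 on the log2 scale in OIR, edgeR adjusted p = 0.0701).

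Markers of amacrine and ganglion cells were lower in OIR than in control mice in their medians, with none called by edgeR. The 12 amacrine markers, among them Gad1, Slc6a9, and Chat, had a median log2 fold change of -1.34 in OIR against control. Of these, 11 of 12 were below control in every OIR mouse, beside 17.2% of all genes. At an unadjusted p below 0.05, 9 were lower and 1 higher, beside 12.7% and 11.1%. The 12 markers summed to 1119 to 1427 CPM in control, 578 to 834 CPM in OIR, and 537 to 1185 CPM in treated OIR mice. The 10 ganglion cell markers, such as Rbpms and Pou4f1, had a median of -1.98. Of these, 10 of 10 were below control in every OIR mouse, beside 17.2% of all genes. At an unadjusted p below 0.05, 4 were lower, beside 12.7%. The 10 markers summed to 1558 to 2198, 185 to 773, and 122 to 1283 CPM in control, OIR, and treated OIR mice. Relative to control, the median ganglion cell marker stood at -1.09, -2.02, and -3.88 for OIR mice 3, 5, and 6, and stood at -5.12, -0.54, and -0.53 in treated OIR mice 2, 5, and 10. Among the OIR mice, both this median and that of the receptors were highest in mouse 3 and lowest in mouse 6, and of all 9 mice both were lowest in treated mouse 2. Neither trait was particular to ganglion cells. The amacrine, bipolar, rod, cone, endothelial, pigment epithelium, and lens medians had the same order, with rods at 0.22, 0.03, and -0.27 in OIR mice 3, 5, and 6. Müller glia and microglial medians were highest in OIR mouse 6. Treated mouse 2 was also the lowest of all for amacrine, bipolar, rod, Müller glia, and microglial medians.

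Markers of other cells stood elsewhere. In OIR against control, the 15 bipolar markers had a median of 0.17 and the 5 horizontal cell markers 0.67. The 8 rod markers stood at -0.01, the 6 cone markers at -0.06, and the 7 Müller glia markers at 0.37. Their summed levels overlapped between OIR and control mice except for the bipolar list, at 1609 to 1882 CPM in control and 1982 to 2094 CPM in OIR mice. The 5 endothelial markers had a median of 0.31, the 6 microglial markers 0.28, and the 4 pigment epithelium markers -0.63. The 10 lens markers stood at 1.25 and the 4 tested skeletal muscle markers at -0.30. In this comparison edgeR called 1 Müller glia and 1 endothelial marker higher, beside 0.433% of all genes, and no other marker of these lists. In treated OIR against OIR, the bipolar markers, like the rho genes, had a negative median, at -0.33. At an unadjusted p below 0.05, 8 of the 15 were lower and 0 higher, beside 2.30% and 2.39% of all genes. Treated mice lay below all OIR mice for 7 of them and above for 0, beside 5.39% and 3.74%. The part of these cell markers in the receptor values was not tested.

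**Figure D5:**
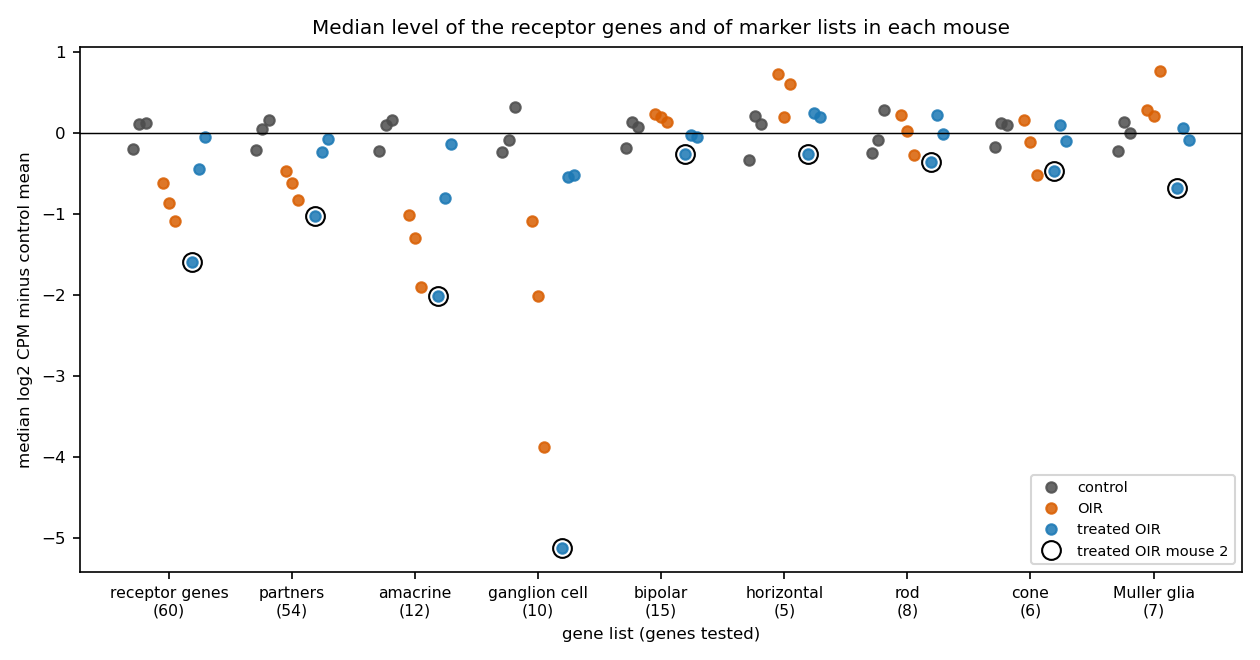
Median log2 CPM relative to the control mean (y axis) over the tested genes of the receptor list, the partner list, and the marker lists of 7 retinal cell types (x axis), with 1 point per mouse and treated OIR mouse 2 circled. The receptors lie at -0.62 to -1.09 in OIR mice, and amacrine and ganglion cell markers lie lower still. Bipolar, horizontal, and Müller glia medians lie above 0 in every OIR mouse, and rod and cone medians run from 0.22 to -0.52.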

How the data were processed

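RNA-Seq counts of 9 mouse retinas were used, in 3 groups of 3 taken from the labels, each mouse being 1 replicate. The authors deposited raw whole-number counts per gene, not normalized, with gene lengths. The submitters' processing notes name CASAVA and HISAT, and the counting tool, annotation, and strand setting are not given in the sources used here. All 69 receptor genes have the same position in GENCODE M21 (GRCm38). No 2 libraries were copies of each other.

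Counts were fitted with edgeR 4.0.16 (R 4.3.3; TMM, default filter by group, quasi-likelihood test, all 9 mice, 1 mean per group), and p-values were adjusted over 17540 genes. The script was tested on simulated data. The 3 comparisons were OIR against control, treated OIR against control, and treated OIR against OIR. Ranges were called apart when all mice of one group lay beyond all of the other. Subunit ratios used counts per kilobase with 1 count added and two-sided exact permutation tests, adjusted over 9 tests, since a planned ratio of Chrne to Chrng had too few counts. Genes given mouse by mouse were receptors with an adjusted p below 0.05 (none), in each comparison the 4 higher and the 4 lower with the lowest p among those of mean log2 CPM of at least 1, the most abundant per length in each class, the subunits of the ratios, and the 3 partners with the lowest p in OIR against control. Of the genes under this rule, 2 and the results that need them are not reported here. Others were named after their values were seen. The members and lists were chosen with earlier results of these data known. Alternatives were other scalings, no filter, leaving out crystallin genes, DESeq2 1.42.0, limma 3.58.1 (voom with quality weights), edgeR and DESeq2 on the 2 groups compared, 0.5 or 2 counts added for ratios, and leaving out each mouse. Plots were drawn in matplotlib 3.10.9 from tables handled with pandas 2.3.3 under Python 3.11.15. With 3 mice per group, p-values rest on few residual degrees of freedom.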

Additional observations from a re-analysis of the deposited data

Results flagged for a closer look

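Chrng, the gamma subunit of the fetal muscle nicotinic receptor, had 303 counts in treated OIR mouse 2 and 0 in each of the other 8 mice, the control mice included. It lay outside the genes tested, since 1 mouse alone had counts, and was marked for that reason. Chrnd, its neighbour on chromosome 1, had 0 counts in all 9 mice, and Chrna1 had 3 counts in mouse 2 beside 5 to 19 in the others. The same mouse held 15.8% of its counts in crystallin genes. The 303 counts are from 1 library and were not tested.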

How the results depend on the processing

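The direction of the receptor median was the same under every alternative run, and the number of receptors called was not. In OIR against control edgeR on all 9 mice called 0. Receptors called lower and higher numbered 33 and 2 of 60 with DESeq2 on the 2 groups, beside 10% and 5.58% of all genes. With edgeR on the 2 groups they were 29 and 2 of 60 (7.44% and 2.88% of all genes). They were 19 and 1 of 60 with DESeq2 on all 9 mice (6.93% and 4.44%) and 25 and 1 with limma-voom (7.91% and 5.23%). Without the filter they were 6 and 0 of 67 (1.11% and 0.639%). Leaving out 1 mouse at a time gave 0 to 31 lower and 0 to 2 higher. Without treated OIR mouse 2 there were 31 and 2 (8.59% and 3.95% of all genes). Without treated OIR mouse 10 there were 3 and 0 (0.736% and 0.349%), and otherwise none. In treated OIR against control, DESeq2 on all 9 mice called 2 lower and 1 higher (2.45% and 2.25% of all genes). There limma-voom called 3 lower and 0 higher (2.66% and 2.62%). In treated OIR against OIR none was called under any alternative. Without treated OIR mouse 2, an alternative chosen after the data were seen, ranges lay above for 35 in place of 4. They lay below for 4 in place of 2. The shares of all genes were 16.1% above in place of 3.74%, and 17.1% below in place of 5.39%. The median log2 fold change over alternatives was -1.02 to -0.79 in OIR against control, -0.94 to -0.27 in treated OIR against control, and 0.12 to 0.78 in treated OIR against OIR. The ratio of Grin2a to Grin2b in treated OIR against OIR turned from -0.07 to 0.57 without OIR mouse 3 and 0.88 without treated OIR mouse 2, within a range of -0.65 to 0.88 (exact permutation p = 0.4 to 0.9). Added counts of 0.5 or 2 turned no ratio, and the ratio of Chrne to Chrng was not run. The cause of these differences was not tested. Of 1377 values of single genes, 25 changed sign, 105 came newly past the threshold (90 lower, 15 higher), and 0 fell short of one passed before. The changes of sign in OIR against control were Gabrr1 at 0.0029 with total counts alone, and Glra1 at -0.0065 without crystallin genes, -0.0057 with edgeR on the 2 groups, and -0.15 with limma-voom. Over the mice left out, Glra1 ranged from -0.10 to 0.25 and Grid1 from -0.32 to 0.032. In treated OIR against control, Gabrr3 ranged from -0.47 to 0.072. In treated OIR against OIR, Chrnb4 was at 0.0012 without crystallin genes and 0.0042 with DESeq2 on the 2 groups, and Grik5 at -0.0396 and Cacng7 at -0.052 with total counts alone. Over the mice left out, Chrnb4 ranged from -0.94 to 0.37, Chrna5 from -0.11 to 0.45, Grik5 from -0.043 to 0.16, Gabrd from -0.083 to 1.68, and Gria4 from -0.34 to 0.61. The lowest value of Gabrd and of Gria4 was without treated OIR mouse 10, and the lowest of Chrnb4 and the highest of Gabrd were without treated OIR mouse 2. No paired analysis was possible because the groups share fewer than 2 replicate numbers and the numbers mark separate mice. With 3 mice per group, 9 of the 69 receptors, Chrng among them, did not pass the filter on low counts and were not tested.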
